A study of Mus musculus with 16 samples.

Results

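The set held 10 genes of germ cells and meiosis (*Sycp1*, *Sycp3*, *Hormad1*, *Cyct*, *Dazl*, *Ddx4*, *Dnd1*, *Dppa3*, *Pou5f1* and *Mael*), taken by symbol from the 26411 genes counted in RNA-sequencing of whole mouse embryos at embryonic day (E) 9.5. It was built around *Sycp1* and *Cyct*, which were chosen by their counts, the former lower and the latter higher in both genotypes without *Kat6a*. The question was whether other germline genes moved with them. The values of *Sycp1* and *Cyct* are therefore given as a description in every comparison, with no test.

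KAT6A and KAT6B are closely related histone acetyltransferases. The study asked whether extra KAT6B can stand in for lost KAT6A, and sequenced 16 embryos, 4 of each of 4 genotypes, with 2 females and 2 males in each. *Kat6a*+/+*Kat6b*+/+ embryos were wild type, and *Kat6a*-/-*Kat6b*+/+ embryos were homozygous for a *Kat6a* allele without several internal exons. *Kat6a*+/+*Tg(Kat6b)* embryos carried a bacterial artificial chromosome, inserted in several copies, that holds the mouse *Kat6b* gene with its own flanks, and *Kat6a*-/-*Tg(Kat6b)* embryos carried this transgene and lacked *Kat6a*. Every embryo came from a hybrid of the FVB and BALB/c backgrounds. Litters 801 and 803 held a wild-type and 2 *Kat6a*-/-*Kat6b*+/+ embryos each. Litter 2597 held a wild-type and 3 *Kat6a*+/+*Tg(Kat6b)* embryos and litter 2598 held 1 of each. The 4 *Kat6a*-/-*Tg(Kat6b)* embryos came from litters 483 and 498, which held no other genotype, so for them genotype and litter cannot be told apart. Litters 2597 and 2598 held no *Kat6a*-/- embryo, so comparisons of all *Kat6a*-/- with all *Kat6a*+/+ embryos also compare litters in part.

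Embryos had from 14407277 to 45665680 reads counted on genes, the fewest in a wild-type embryo. Levels are given as counts and as CPM (counts scaled to a common library size after TMM normalization). *Kat6b* was at 42.6 to 51.0 CPM in the 8 embryos without the transgene and at 155 to 227 CPM in the 8 with it. *Kat6a* counts cover the whole gene and did not mark the deletion, with 202 ± 15.2 CPM in *Kat6a*-/-*Kat6b*+/+ and 199 ± 16.5 in wild-type embryos (SD, n = 4). *Xist* matched the sex labels, at 769 to 1210 CPM in females and at most 0.825 in males. All 12 marker genes of the E9.5 embryo (heart, neural tube, somites, limb buds and primitive blood, led by the embryonic globins *Hbb-y* and *Hbb-bh1*) were counted in every genotype.

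At E9.5 the germline consists of a small number of primordial germ cells, which are moving through the hindgut towards the future gonads. These cells carry OCT4 (*Pou5f1*), STELLA (*Dppa3*) and the RNA-binding protein DND1, while DAZL and the RNA helicase DDX4 rise later, around arrival in the gonad. Meiosis begins later still, in the fetal ovary and in the testis after birth. In somatic cells many meiotic genes are kept silent by DNA methylation and by a variant Polycomb complex that binds E-box sequences through MGA and MAX. In a whole embryo, fewer germ cells and less RNA per cell cannot be told apart.

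The promoters of *Sycp1*, *Sycp3* and *Cyct* are shown because they carry these features to different degrees. *Sycp1* encodes the transverse filament of the synaptonemal complex, the structure that joins paired chromosomes in meiosis, *Sycp3* a component of its lateral element, and *Cyct* the testis form of cytochrome c. The sequences are from RefSeq (promoter table built on GRCm38.p6). Each matched GRCm39 exactly once and is printed up to the base before the GENCODE exon that follows it, at chr3:102843456-102843666 (minus strand) for *Sycp1*, chr10:88295199-88295430 (plus strand) for *Sycp3* and chr2:76190837-76191047 (minus strand) for *Cyct*. The *Cyct* stretch lies within an intron of a longer annotated isoform. Capitals mark the E-box CACGTG and the motif TCCCGC, searched on both strands.

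Sycp1: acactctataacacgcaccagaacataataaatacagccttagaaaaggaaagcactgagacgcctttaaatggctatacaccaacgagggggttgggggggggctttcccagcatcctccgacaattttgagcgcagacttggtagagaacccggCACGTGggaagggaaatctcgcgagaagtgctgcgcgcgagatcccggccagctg
Sycp3: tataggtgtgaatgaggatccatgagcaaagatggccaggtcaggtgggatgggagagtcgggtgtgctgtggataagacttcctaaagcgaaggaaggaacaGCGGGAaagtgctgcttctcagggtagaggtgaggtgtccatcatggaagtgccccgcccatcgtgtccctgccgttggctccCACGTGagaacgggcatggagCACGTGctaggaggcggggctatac
Cyct: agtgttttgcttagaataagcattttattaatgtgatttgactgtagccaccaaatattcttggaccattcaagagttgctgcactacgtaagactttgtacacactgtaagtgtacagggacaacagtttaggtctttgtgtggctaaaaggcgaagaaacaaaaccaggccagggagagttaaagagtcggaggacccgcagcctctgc

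*Sycp1* holds 1 E-box and *Sycp3* 2 in these stretches, and *Cyct* holds neither motif there. Over the full windows of 250 bases before to 50 after the RefSeq start, which 8 of the 10 genes have in the table, an E-box was present in 5 of 8 (62.5%, *Sycp1*, *Sycp3*, *Ddx4*, *Hormad1* and *Mael*), against 8.09% of 27025 genes. TCCCGC was present in 6 of 8 (75%), against 22% of all genes. The median number of CpG dinucleotides was 22.5 against 8, with 21 in *Sycp1*, 15 in *Sycp3* and 8 in *Cyct*. Of the 5 genes with an E-box, *Hormad1* and *Mael* were nearly uncounted in these embryos. A match in the letters is no evidence of binding.

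*Sycp1* (Entrez Gene 20957; chr3:102725709-102843455, minus strand, GRCm39) was highest in wild-type embryos. Its CPM were 5.53, 4.14, 3.75 and 4.12 in wild-type embryos and 0.774, 2.37, 1.18 and 0.733 in *Kat6a*-/-*Kat6b*+/+ embryos. They were 1.20, 2.73, 3.01 and 1.70 in *Kat6a*+/+*Tg(Kat6b)* and 0.923, 1.33, 0.678 and 1.16 in *Kat6a*-/-*Tg(Kat6b)* embryos. All 12 embryos of the other genotypes lay below the lowest wild-type embryo, including the 4 that had *Kat6a* and the transgene, whose range overlapped that of the *Kat6a*-/- embryos. The log2 fold change vs. wild type was -1.76 ± 0.35 (SE) in *Kat6a*-/-*Kat6b*+/+ and -2.13 ± 0.39 in *Kat6a*-/-*Tg(Kat6b)* embryos, a description, since these values chose the gene. In these comparisons 4.01% and 3.68% of the 15679 genes tested were lower without overlap, and 1.88% and 0.670% passed the threshold (edgeR FDR, the Benjamini-Hochberg adjusted p, under 0.05). *Kat6a*-/-*Tg(Kat6b)* embryos differed from *Kat6a*+/+*Tg(Kat6b)* embryos by -1.09 ± 0.43.

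*Sycp1* was also low where only the transgene was added to the wild type, at 2.16 ± 0.852 against 4.39 ± 0.783 CPM (SD, n = 4) and without overlap. The log2 fold change was -1.04 ± 0.34 (SE), again a description, since its wild-type embryos are those that chose the gene. In that comparison 2.38% of all tested genes were lower without overlap and 0.140% passed the threshold in either direction. In *Kat6a*-/- embryos with the transgene *Sycp1* was at 1.02 ± 0.286 CPM and without it at 1.27 ± 0.765 CPM (SD, n = 4), a log2 fold change of -0.37 ± 0.42 with overlapping values.

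Within litters the order of *Sycp1* was the same. In litters 801 and 803 the 2 wild-type embryos were at 5.53 and 4.14 CPM (127 and 75 counts) and their 4 *Kat6a*-/-*Kat6b*+/+ littermates at 0.733 to 2.37 CPM (14 to 91 counts). In litters 2597 and 2598 the 2 wild-type embryos were at 3.75 and 4.12 CPM and their 4 *Kat6a*+/+*Tg(Kat6b)* littermates at 1.20 to 3.01 CPM. Each wild-type embryo was thus above all of its littermates.

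*Cyct* (Entrez Gene 13067; chr2:76184284-76196373, minus strand) was nearly uncounted in embryos with *Kat6a*. Its counts were 0, 0, 1 and 0 in wild-type embryos and 1, 1, 1 and 2 in *Kat6a*+/+*Tg(Kat6b)* embryos, and 2, 35, 20 and 21 in *Kat6a*-/-*Kat6b*+/+ and 12, 12, 9 and 17 in *Kat6a*-/-*Tg(Kat6b)* embryos. Scaled to library size, all 8 *Kat6a*-/- embryos (0.111 to 1.18 CPM) were above all 8 *Kat6a*+/+ embryos (0 to 0.0873 CPM), as were 0.204% of all tested genes. The lowest *Kat6a*-/- embryo, of litter 801, had 2 counts, no more than the highest *Kat6a*+/+ embryo, whose library was deeper. In sums of 4 embryos the ratio of *Cyct* to wild type was 55.9 in *Kat6a*-/-*Kat6b*+/+ (78 counts against 1, exact 95% interval 9.75 to 2237) and 33.7 in *Kat6a*-/-*Tg(Kat6b)* embryos (50 against 1, 5.78 to 1359). Between the genotypes with the transgene, the ratio of embryos without to those with *Kat6a* was 8.20 (50 counts against 5, 3.29 to 26.3). These intervals cover counting error only and leave out the spread between embryos. They test nothing, since these counts chose the gene. In the same comparisons 3.96%, 3.42% and 6.09% of all tested genes were higher without overlap.

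**Figure D1:**
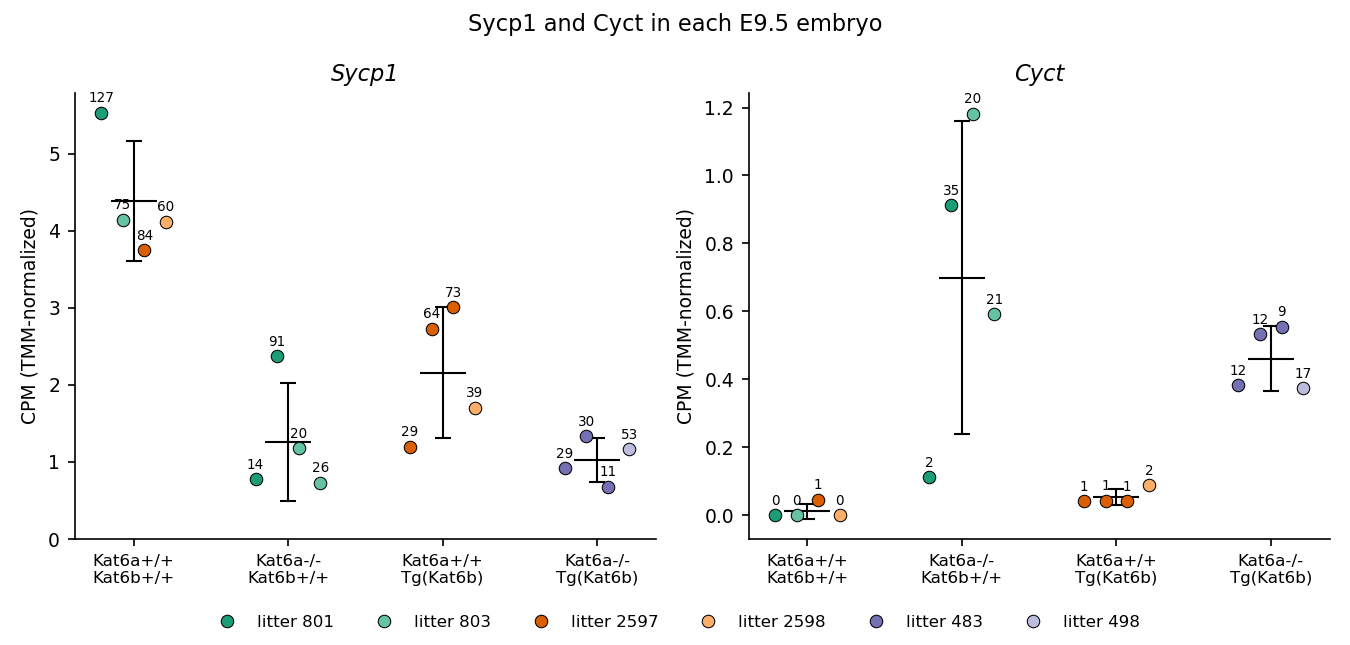
CPM of *Sycp1* (left) and *Cyct* (right) in each embryo, by genotype; each point is 1 embryo, coloured by litter and labelled with its raw count, and lines show the mean ± SD of 4 embryos. The wild-type embryos lie highest for *Sycp1*, between 3.75 and 5.53 CPM, and *Cyct* stays at or below 0.0873 CPM in all embryos with *Kat6a*.

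Both *Kat6a*-/- genotypes were used to choose *Cyct*, which passed the count filter only through them. It was at 0.461 ± 0.0966 CPM in the 4 such embryos with the transgene and at 0.699 ± 0.461 CPM in the 4 without it (SD, n = 4). The fitted log2 fold change was -0.09 ± 0.93 (SE), and the ranges overlapped. In summed counts the ratio was 0.603 (50 against 78, exact 95% interval 0.414 to 0.871, counting error only). In *Kat6a*+/+*Tg(Kat6b)* over wild-type embryos the ratio was 4.12, from 5 counts against 1 (exact 95% interval 0.460 to 195).

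*Cycs*, the cytochrome c of somatic cells, was far more abundant, at 15.7 ± 0.678 RPKM in wild-type embryos (SD, n = 4; RPKM is CPM per kilobase of gene, comparable between genes). *Cyct* in *Kat6a*-/-*Kat6b*+/+ embryos reached 1.06 ± 0.700 RPKM. Of the counts on the 2 genes together, *Cyct* took at most 0.163% in any embryo with *Kat6a* and 0.220% to 2.52% in those without. Of the 66-base words of *Cyct* transcripts, the length of a read, 0.159% occur in another gene, compared with 21.3% for *Cycs*, which has processed copies in the genome. These words (5662 for *Cyct*) cover all annotated isoforms, while the deposited length of *Cyct* is 658 bases. The share within the counted part was not measured. Of the 16 genes listed for somatic cytochrome c and the respiratory chain, led by *Uqcrc1* (206 CPM) and *Uqcrc2* (205 CPM), none passed in any comparison of *Kat6a*-/- with *Kat6a*+/+ embryos. With the transgene in *Kat6a*-/- embryos 8 of 16 fell (7.14% of all genes passed), all of them subunits of cytochrome c oxidase (*Cox4i1*, *Cox5a*, *Cox5b*, *Cox6a1*, *Cox6b1*, *Cox7a2*, *Cox7c* and *Cox8a*), with a list median of -0.19 against 0.00 for all genes (-0.00490). Subunits of this oxidase make up most of the list, and 13 of the 16 genes had an unadjusted p under 0.05 there (edgeR), against 23.2% of all genes. *Cox7c* fell by 0.69 ± 0.13 on the log2 scale (edgeR FDR = 0.00415).

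Per kilobase of the deposited gene length, *Sycp1* (1.28 ± 0.228 RPKM) and *Sycp3* (1.23 ± 0.117) were the highest of the 10 genes in wild-type embryos and did not differ beyond their spread. *Dnd1* (0.794 ± 0.183) and *Pou5f1* (0.519 ± 0.120) came next, followed by *Dppa3* (0.219 ± 0.175) and *Ddx4* (0.10 ± 0.0550), whose ranges overlapped. *Dazl* (0.0397 ± 0.0269), *Mael* (0.0273 ± 0.0192) and *Cyct* (0.0170 ± 0.0339) could not be ranked at 1 to 9 counts per 4 embryos, and *Hormad1* had none (all SD, n = 4). In *Kat6a*-/-*Kat6b*+/+ embryos *Cyct*, at 1.06 RPKM, had a mean near those of *Sycp3* (1.28 ± 0.204) and *Dnd1* (1.05 ± 0.0737), and its values overlapped those of *Sycp1* (0.368 ± 0.223).

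Of the 8 other genes, *Sycp3*, *Ddx4*, *Dnd1* and *Pou5f1* had enough counts for the edgeR test and none of these 4 passed the threshold in any comparison, where 0.140% to 7.14% of all genes did (0.153% in the interaction). At an unadjusted p under 0.05, none of the 4 passed in the comparison of *Kat6a*-/-*Kat6b*+/+ with wild type (15.2% of all genes) or in *Kat6a*-/- vs. *Kat6a*+/+ embryos over both *Kat6b* states (19.9%), in which 4.82% of all genes passed the FDR threshold. None of them passed in the 24 to 27 alternative fits that included the gene, DESeq2 and limma-voom included.

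*Sycp3* (Entrez Gene 20962; chr10:88295431-88309099), the partner of *Sycp1* in the synaptonemal complex, overlapped between all genotypes. Its CPM were 1.35, 1.44, 1.21 and 1.51 in wild-type, 1.77, 1.33, 1.36 and 1.27 in *Kat6a*-/-*Kat6b*+/+, 0.661, 1.58, 1.48 and 1.05 in *Kat6a*+/+*Tg(Kat6b)* and 1.11, 1.29, 1.29 and 1.05 in *Kat6a*-/-*Tg(Kat6b)* embryos. Over both *Kat6b* states the log2 fold change of *Kat6a*-/- vs. *Kat6a*+/+ was 0.02 ± 0.19 (SE, 95% confidence interval -0.362 to 0.408, edgeR FDR = 0.966). *Sycp3* is uncertain as 48.5% of its exon bases overlap *Chpt1* on the opposite strand, and the kit does not mark strand.

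*Hormad1*, which binds unpaired chromosome axes in meiosis, had 5 counts in all 16 embryos. It had 0, 0, 0 and 0 counts in wild-type, 0, 0, 1 and 1 in *Kat6a*-/-*Kat6b*+/+, 0, 0, 1 and 0 in *Kat6a*+/+*Tg(Kat6b)* and 0, 0, 1 and 1 in *Kat6a*-/-*Tg(Kat6b)* embryos. The 0 counts of the 4 wild-type embryos allow a level of up to 0.0384 CPM. The difference between the 8 *Kat6a*-/- and the 8 *Kat6a*+/+ embryos was not detectable at this depth (4 counts against 1, two-sided exact permutation test of mean CPM, unadjusted p = 0.179).

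*Ddx4* (Entrez Gene 13206; chr13:112734867-112789009), the mouse VASA homologue, had 9, 3, 10 and 2 counts in wild-type and 7, 16, 16 and 17 in *Kat6a*-/-*Kat6b*+/+ embryos. It had 9, 11, 9 and 3 in *Kat6a*+/+*Tg(Kat6b)* and 14, 8, 7 and 13 in *Kat6a*-/-*Tg(Kat6b)* embryos. In CPM, *Kat6a*-/- embryos (0.286 to 0.945) overlapped *Kat6a*+/+ embryos (0.131 to 0.469). The log2 fold change over both *Kat6b* states was 0.57 ± 0.31 (SE, 95% confidence interval -0.0762 to 1.23) and did not pass (edgeR FDR = 0.321).

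*Dazl*, an RNA-binding regulator of germ cell entry into gametogenesis, was at most at 12 counts. It had 1, 4, 3 and 1 counts in wild-type, 0, 3, 0 and 12 in *Kat6a*-/-*Kat6b*+/+, 1, 2, 5 and 3 in *Kat6a*+/+*Tg(Kat6b)* and 2, 3, 4 and 5 in *Kat6a*-/-*Tg(Kat6b)* embryos. The means of the 8 *Kat6a*-/- and 8 *Kat6a*+/+ embryos were 0.121 and 0.116 CPM (two-sided exact permutation test, unadjusted p = 0.926). *Mael*, a germ granule protein of the piRNA pathway that silences transposons, had 0, 1, 1 and 1 counts in wild-type, 2, 5, 1 and 0 in *Kat6a*-/-*Kat6b*+/+, 3, 3, 0 and 0 in *Kat6a*+/+*Tg(Kat6b)* and 4, 5, 1 and 6 in *Kat6a*-/-*Tg(Kat6b)* embryos. Its means were 0.105 and 0.0525 CPM (two-sided exact permutation test, unadjusted p = 0.0970, falling to 0.0274 without *Kat6a*-/-*Kat6b*+/+ replicate 4). Both genes overlapped in every comparison.

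*Dppa3* (STELLA), a marker of early germ cells, had 3, 0, 7 and 4 counts in wild-type, 0, 4, 0 and 7 in *Kat6a*-/-*Kat6b*+/+, 6, 8, 1 and 4 in *Kat6a*+/+*Tg(Kat6b)* and 0, 1, 1 and 8 in *Kat6a*-/-*Tg(Kat6b)* embryos. Its mean was 0.0729 CPM in the 8 *Kat6a*-/- and 0.190 in the 8 *Kat6a*+/+ embryos, with overlapping values (two-sided exact permutation test, unadjusted p = 0.0444). The same test gave p under 0.05 for 6.15% of the 4338 genes below the count filter with at least 5 counts, with 2.21% lower in *Kat6a*-/- embryos, and *Dppa3* was 1 of 4 genes tested in this way. The p rose to 0.0542 to 0.0872 without 11 of the 16 embryos, each left out singly, and edgeR without a count filter gave a log2 fold change of -0.96 ± 0.71 (edgeR FDR = 0.560). In litters 801 and 803 *Dppa3* was at 0.131 and 0 CPM in the wild-type embryos and at 0 to 0.197 CPM in their *Kat6a*-/-*Kat6b*+/+ littermates. It was at 0.0412 to 0.341 CPM in litters 2597 and 2598, which held no *Kat6a*-/- embryo. The part of litter in the difference was not tested. Of its exon bases 12.8% overlap *Gdf3* on the opposite strand.

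*Dnd1* (Entrez Gene 213236), which germ cells need to survive their migration, was at 1.09, 1.33, 1.43 and 0.824 CPM in wild-type and at 2.15, 1.54, 1.53 and 1.62 CPM in *Kat6a*+/+*Tg(Kat6b)* embryos, higher without overlap, as were 1.62% of all genes. It was at 1.66, 1.41, 1.6 and 1.52 in *Kat6a*-/-*Kat6b*+/+ and at 1.43, 1.69, 1.91 and 1.16 in *Kat6a*-/-*Tg(Kat6b)* embryos, both of which overlapped wild type. The difference between *Kat6a*+/+*Tg(Kat6b)* and wild-type embryos was 0.55 ± 0.22 on the log2 scale (SE, unadjusted p = 0.0223) and did not pass (edgeR FDR = 0.324). Over both *Kat6b* states *Kat6a*-/- and *Kat6a*+/+ embryos differed by 0.06 ± 0.16 (edgeR FDR = 0.878). Of its exon bases 27.8% overlap other genes on the opposite strand, *Wdr55* among them.

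*Pou5f1* (Entrez Gene 18999; chr17:35816789-35822274), the pluripotency factor that persists in germ cells, had 16, 17, 12 and 12 counts in wild-type and 6, 11, 11 and 8 in *Kat6a*+/+*Tg(Kat6b)* embryos. It had 15, 36, 7 and 18 in *Kat6a*-/-*Kat6b*+/+ and 11, 14, 5 and 24 in *Kat6a*-/-*Tg(Kat6b)* embryos. In CPM the embryos with the transgene were low, at 0.248 to 0.469 with *Kat6a* and 0.308 to 0.622 without, against 0.536 to 0.939 in wild-type embryos. *Kat6a*-/-*Kat6b*+/+ embryos, at 0.414 to 0.938 CPM, overlapped both genotypes with the transgene. The log2 fold change was -0.90 ± 0.33 (SE) in *Kat6a*+/+*Tg(Kat6b)* relative to wild-type (edgeR FDR = 0.257), -0.95 ± 0.33 in *Kat6a*-/-*Tg(Kat6b)* vs. wild-type (edgeR FDR = 0.219) and -0.78 ± 0.32 in *Kat6a*-/-*Tg(Kat6b)* compared with *Kat6a*-/-*Kat6b*+/+ embryos (edgeR FDR = 0.136). These comparisons share embryos and none passed, although the unadjusted p was under 0.05 in each (0.0122, 0.00943 and 0.0222), as for 11.5%, 12.7% and 23.2% of all genes. Between *Kat6a*-/- and *Kat6a*+/+ embryos *Pou5f1* differed by -0.11 ± 0.24 (edgeR FDR = 0.857). Of its exon bases 14.1% overlap *Gm19553* and *Gm32362* on the opposite strand.

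**Figure D2:**
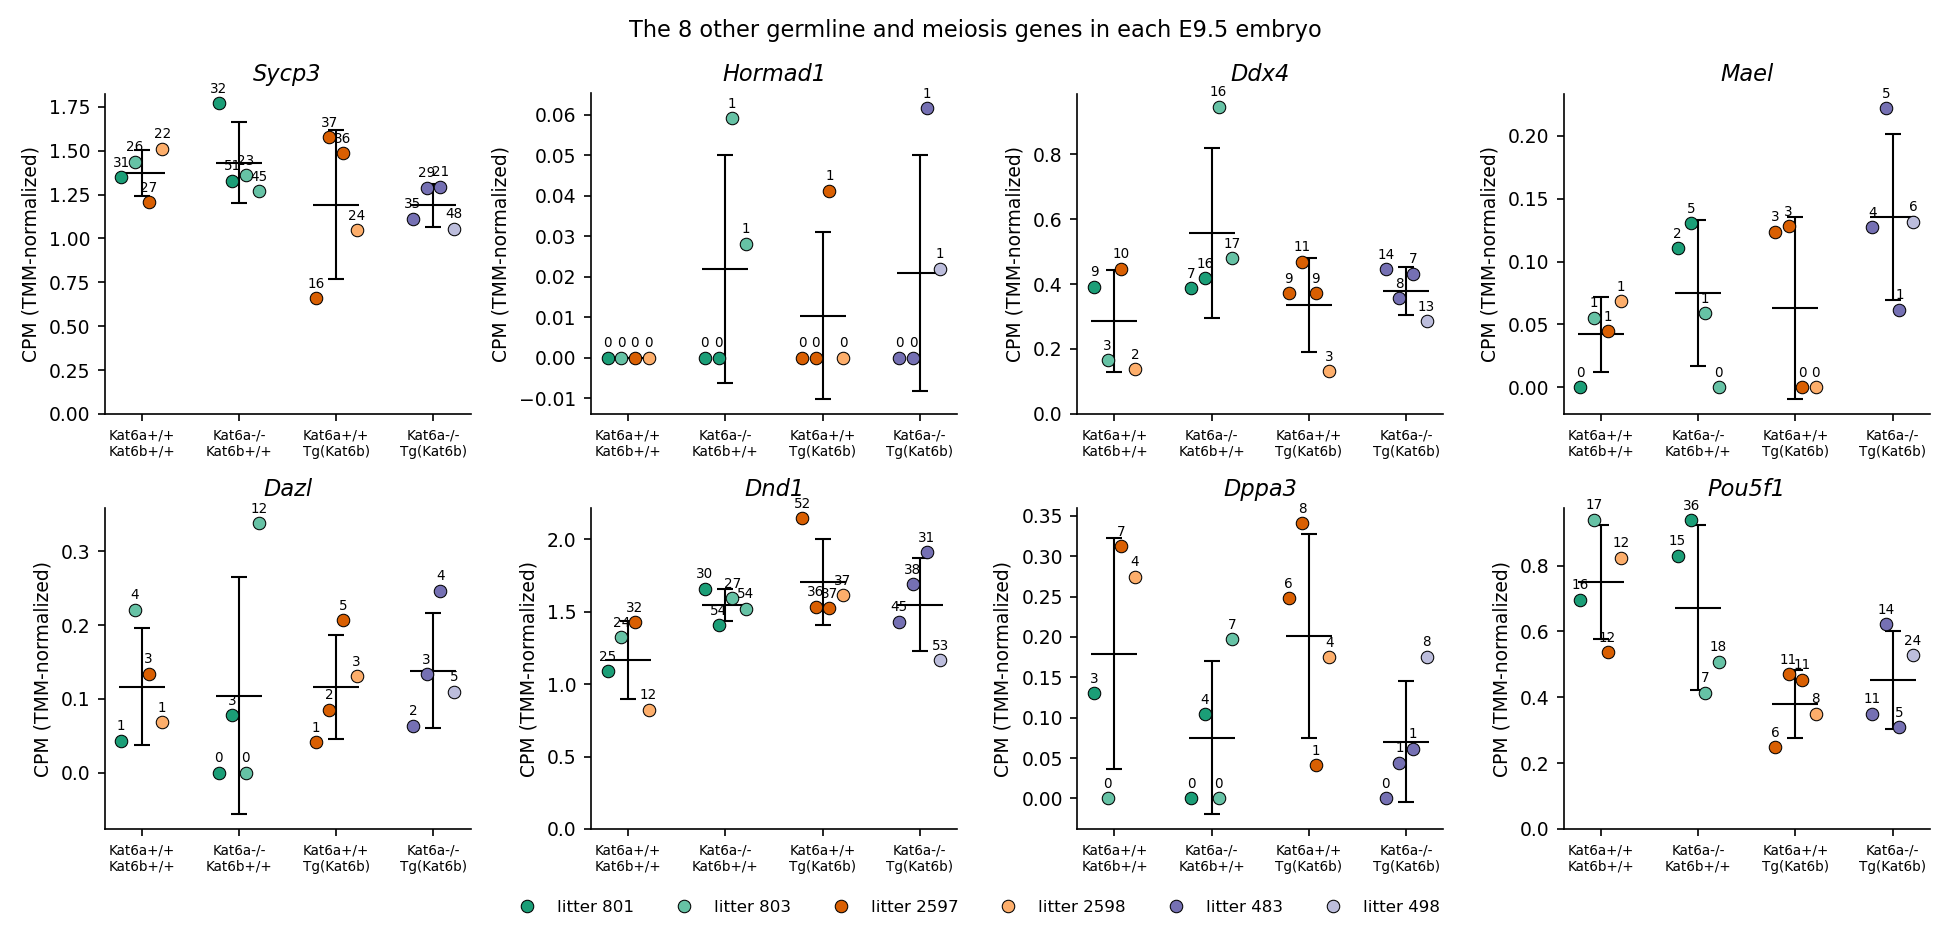
CPM of the 8 other genes in each embryo, by genotype, each panel on its own scale; each point is 1 embryo, coloured by litter and labelled with its raw count, and lines show the mean ± SD of 4 embryos. *Kat6a*-/- and *Kat6a*+/+ embryos overlap in every panel, and *Hormad1* never exceeds 1 count.

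**Figure D3:**
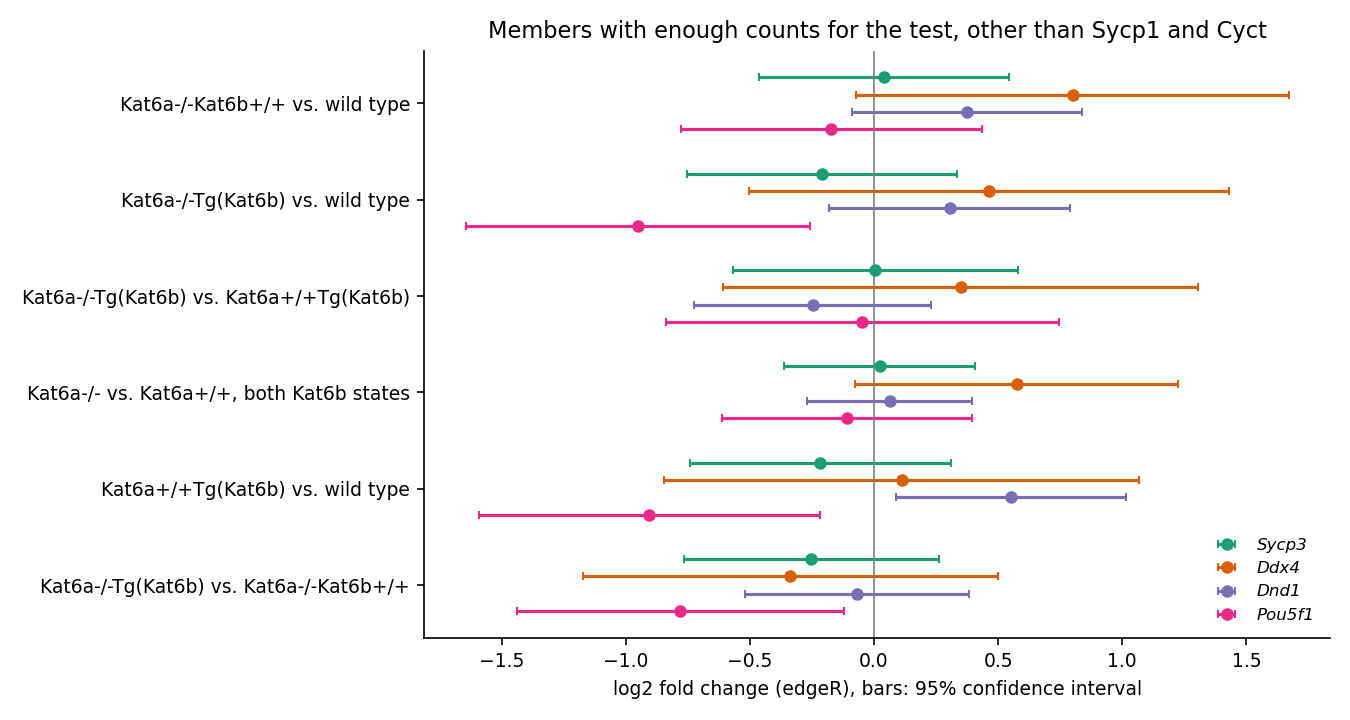
Log2 fold changes of *Sycp3*, *Ddx4*, *Dnd1* and *Pou5f1* in 6 comparisons, with 95% confidence intervals from edgeR. In *Kat6a*-/- vs. *Kat6a*+/+ embryos over both *Kat6b* states all 4 intervals contain 0, and *Pou5f1* lies lowest where the transgene is compared, between -0.95 and -0.78.

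The 10 genes chosen as markers of primordial germ cells (*Dppa3*, *Pou5f1*, *Dnd1*, *Dazl*, *Ddx4*, *Nanos3*, *Prdm1*, *Prdm14*, *Tfap2c* and *Ifitm3*) were all counted in every genotype. Most of their sum came from *Ifitm3*, *Prdm1* and *Tfap2c*, which somatic tissues of the embryo also express. Without these 3, the markers summed to 2.70 to 3.62 CPM in wild-type, 3.41 to 3.90 in *Kat6a*-/-*Kat6b*+/+, 3.13 to 3.71 in *Kat6a*+/+*Tg(Kat6b)* and 2.64 to 3.51 in *Kat6a*-/-*Tg(Kat6b)* embryos. These ranges overlapped, and their order was not that of *Sycp1* or *Cyct*.

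Among the 25 other genes of germ cells and pluripotency, led by *Lin28a* (327 CPM) and *Sox2* (167 CPM), 16 were tested and 2 passed in *Kat6a*-/- vs. *Kat6a*+/+ embryos over both *Kat6b* states, where 4.82% of all genes passed. *Ifitm3*, an interferon-induced membrane protein of early germ cells, rose by 0.36 ± 0.09 on the log2 scale (edgeR FDR = 0.0164) and *Sox2*, which is abundant in the neural tube, fell by 0.14 ± 0.03 (edgeR FDR = 0.00393). The list median was -0.07 against 0.00 for all genes (-0.00320). In *Kat6a*-/-*Kat6b*+/+ vs. wild-type embryos *Ifitm3* rose by 0.50 ± 0.11 (edgeR FDR = 0.0244) and *Kit*, the receptor for stem cell factor on germ, blood and pigment cell precursors, fell by 0.26 ± 0.06 (edgeR FDR = 0.0233). With the transgene in *Kat6a*-/- embryos both changed the other way, *Ifitm3* by -0.46 ± 0.11 and *Kit* by 0.40 ± 0.06 (edgeR FDR = 0.0190 and 0.000504). *Ifitm3* was at 6.87 ± 0.532 CPM in wild-type and 9.77 ± 1.12 in *Kat6a*-/-*Kat6b*+/+ embryos, and with the transgene at 5.93 ± 0.874 with and 7.46 ± 1.17 without *Kat6a* (SD, n = 4). *Sox2* also fell in *Kat6a*-/-*Tg(Kat6b)* compared with *Kat6a*+/+*Tg(Kat6b)* embryos (by 0.21 ± 0.04, edgeR FDR = 0.00744).

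Among 44 other genes of meiosis, 42 were in the files and 25 were tested, with *Trip13* (86.7 CPM) and *Mns1* (36.6 CPM) the most abundant. Over both *Kat6b* states 1 rose and 1 fell (4.82% of all genes passed), and the median was -0.04 against -0.00320 for all genes. *Psmc3ip*, a cofactor of strand exchange in recombination, rose by 0.31 ± 0.05 (edgeR FDR = 0.00289), from 20.5 ± 1.90 CPM in wild-type to 23.5 ± 1.23 in *Kat6a*-/-*Kat6b*+/+ and from 18.5 ± 2.07 in *Kat6a*+/+*Tg(Kat6b)* to 26.2 ± 1.68 CPM with the transgene and no *Kat6a* (SD, n = 4). It passed on its own in the latter pair (0.42 ± 0.08, edgeR FDR = 0.00898). *Prdm9*, the methyltransferase that sets recombination sites, fell by 0.45 ± 0.12 (edgeR FDR = 0.0332), from 3.87 ± 0.247 to 2.72 ± 0.513 CPM without and from 3.60 ± 0.332 to 2.70 ± 0.558 CPM with the transgene. No meiosis gene passed in *Kat6a*-/-*Kat6b*+/+ vs. wild-type embryos by edgeR (4 of 25 had an unadjusted p under 0.05, against 15.2% of all genes). *Stra8*, which starts meiosis, was 1 of 7 listed genes at 0 in wild-type embryos and was counted in each of the other genotypes. *Syce3* was at 0 in all 16 embryos.

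Of 25 genes of the piRNA pathway and germ granules, 23 were in the files and 13 were tested, led by *Tdrkh* (17.9 CPM) and *Tdrd7* (12.7 CPM). None passed in *Kat6a*-/- vs. *Kat6a*+/+ embryos over both *Kat6b* states (edgeR; 3 of 13 at an unadjusted p under 0.05, against 19.9% of all genes), with a median of 0.05. *Tdrd7*, a germ granule protein also known from the lens, rose with the transgene in *Kat6a*-/- embryos by 0.47 ± 0.10 (edgeR FDR = 0.00802). Of 25 testis forms of metabolic genes and spermatid genes, the class nearest to *Cyct*, 7 were tested and none passed in any comparison (edgeR; 1 of 7 at an unadjusted p under 0.05 over both *Kat6b* states, against 19.9% of all genes, median -0.24). *Acrbp* (6.56 CPM) and *Hspa1l* (5.39 CPM) led that list. *Pgk2*, *Prm2*, *Tnp1* and *Cox8c* were at 0 in every embryo.

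The 25 genes listed as repressors of germline genes in somatic cells were all tested and were abundant, led by *Trim28* (1281 CPM) and *Dnmt1* (527 CPM). What they do to germline genes in these embryos was not tested. Over both *Kat6b* states 1 rose and 3 fell (4.82% of all genes passed), with a median of -0.03. The DNA methyltransferase *Dnmt3a* rose by 0.10 ± 0.02 (edgeR FDR = 0.0190). *Cbx1*, a heterochromatin protein, fell by 0.12 ± 0.03 (edgeR FDR = 0.0151), the Polycomb ubiquitin ligase *Ring1* by 0.17 ± 0.04 (edgeR FDR = 0.0292) and the zinc finger protein *Zfp57*, which guards imprints, by 0.18 ± 0.05 (edgeR FDR = 0.0378). Between the genotypes with the transgene, where 3.41% of all genes passed, *Dnmt3a* and *Ehmt1* were higher and *Cbx1* and *Ring1* lower without *Kat6a*. *Rybp* rose with the transgene in *Kat6a*-/- embryos (0.18 ± 0.04, edgeR FDR = 0.0138). None passed in *Kat6a*-/-*Kat6b*+/+ vs. wild-type embryos by edgeR (6 of 25 at an unadjusted p under 0.05, against 15.2% of all genes). *Mga*, *Max* and *Pcgf6*, of the complex that binds E-boxes, did not pass in any comparison.

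Of 15 genes of the surroundings of migrating germ cells, 14 were tested, and *Cxcl12* (193 CPM) and *Kitl* (61.9 CPM), the ligands that guide and sustain germ cells, were the highest. Over both *Kat6b* states, where 4.82% of all genes passed, *Kitl* rose by 0.13 ± 0.03 (edgeR FDR = 0.0201) and the hindgut factor *Cdx2* fell by 0.35 ± 0.07 (edgeR FDR = 0.0103), and the median was -0.06. *Cdx2* also passed in *Kat6a*-/-*Kat6b*+/+ vs. wild-type (-0.42 ± 0.11), *Kat6a*+/+*Tg(Kat6b)* relative to wild-type (0.51 ± 0.10) and *Kat6a*-/-*Tg(Kat6b)* compared with *Kat6a*-/-*Kat6b*+/+ embryos (0.66 ± 0.10). These calls of *Cdx2* rest on the adjusted model, as its CPM ranges overlapped widely (5.35 to 14.1 in wild-type and 4.02 to 9.68 in *Kat6a*-/-*Kat6b*+/+ embryos), and neither gene passed over both *Kat6b* states without surrogate variables. The mesoderm factor *T* rose in *Kat6a*+/+*Tg(Kat6b)* relative to wild-type (0.59 ± 0.11, edgeR FDR = 0.0423) and the endoderm factor *Gata6* in *Kat6a*-/-*Tg(Kat6b)* compared with *Kat6a*-/-*Kat6b*+/+ embryos (0.66 ± 0.14, edgeR FDR = 0.0191). *Kitl* also rose in *Kat6a*-/-*Tg(Kat6b)* compared with *Kat6a*+/+*Tg(Kat6b)* embryos (0.20 ± 0.05).

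**Figure D4:**
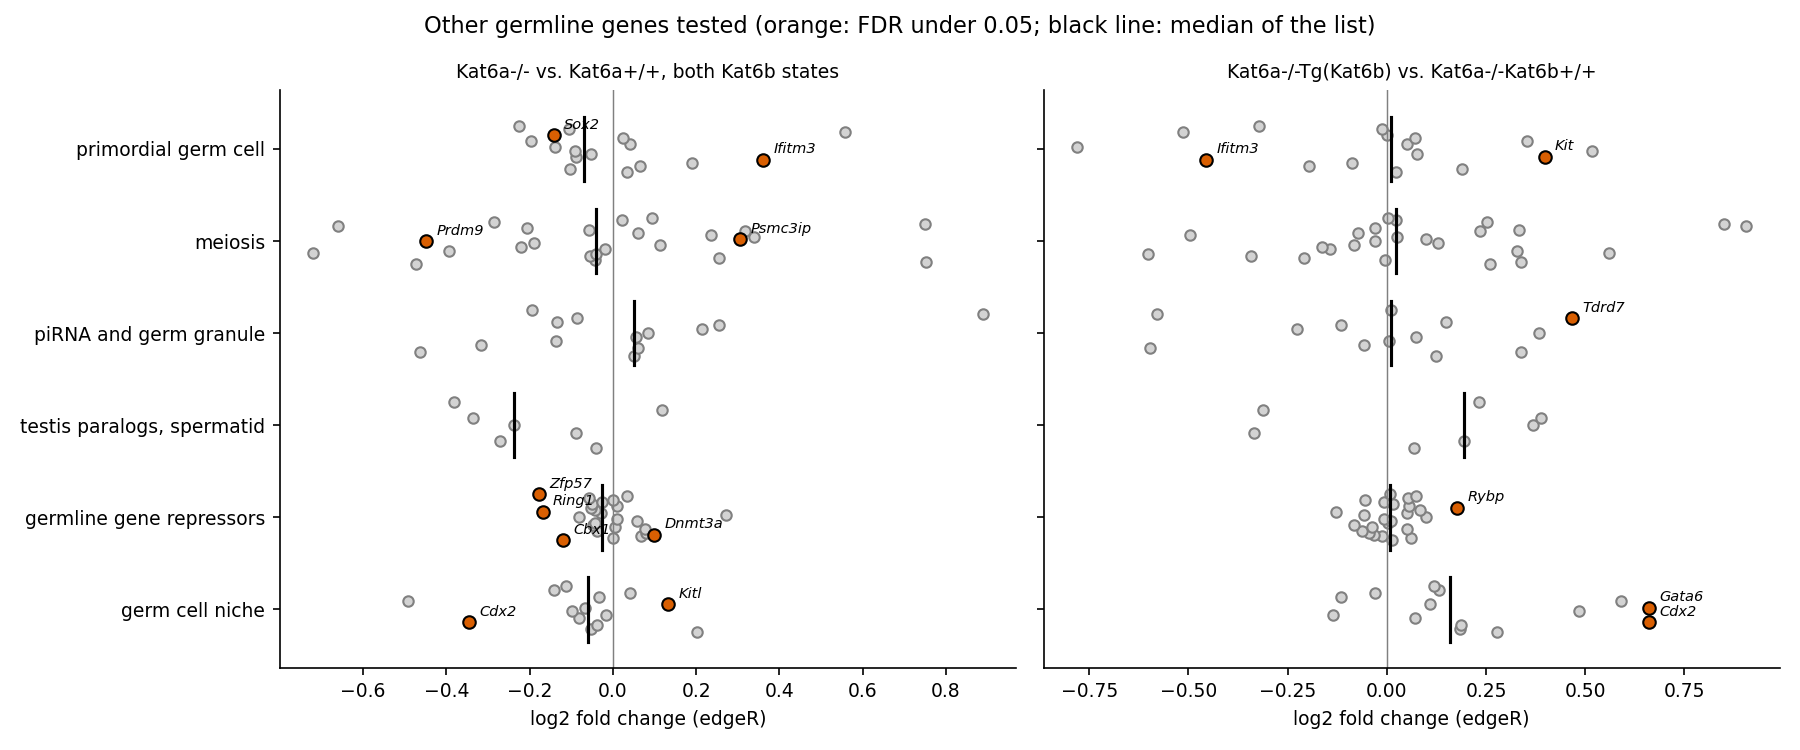
Log2 fold changes of the tested genes of 6 lists, in *Kat6a*-/- vs. *Kat6a*+/+ embryos over both *Kat6b* states (left) and *Kat6a*-/-*Tg(Kat6b)* compared with *Kat6a*-/-*Kat6b*+/+ embryos (right). Each point is 1 gene, orange and named where the edgeR FDR was under 0.05, and the black line is the median of the list; the medians on the left lie between -0.24 and 0.05.

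Markers of the tissues around the embryo varied within and between genotypes. The 10 markers of yolk sac and visceral endoderm, led by *Afp* (22.8 CPM) and *Trf* (6.95 CPM), summed to 20.8 to 65.6 CPM in wild-type, 18.4 to 26.4 in *Kat6a*-/-*Kat6b*+/+, 8.99 to 58.3 in *Kat6a*+/+*Tg(Kat6b)* and 47.6 to 65.4 in *Kat6a*-/-*Tg(Kat6b)* embryos, and none of the 8 tested passed in any comparison (edgeR; 3 of 8 at an unadjusted p under 0.05 for the transgene in *Kat6a*-/- embryos, against 23.2% of all genes). The 10 markers of trophoblast and placenta, nearly all *Hand1* (20.4 CPM, next *Prl3b1* at 0.960), summed to 21.3 to 26.4, 11.1 to 17.2, 13.3 to 26.4 and 26.6 to 35.1 CPM in the same order. *Hand1*, also a gene of embryonic mesoderm, rose in *Kat6a*-/-*Tg(Kat6b)* compared with *Kat6a*-/-*Kat6b*+/+ embryos by 1.16 ± 0.23 (edgeR FDR = 0.0151, where 7.14% of all genes passed). The placental *Tpbpa* was at 0 in all 16 embryos. The 9 decidua markers, led by *Des* (53.8 CPM) and *Hand2* (37.8 CPM), summed to 101 to 148 CPM. *Prl8a2* was at 0 throughout, and *Prl3c1* was at 0 in every genotype but the wild type. Most of the sum came from *Des* and *Hand2*, and whether their counts come from maternal tissue or from the embryo itself was not tested. Of the 9 decidua markers *Dcn* rose in *Kat6a*-/-*Tg(Kat6b)* compared with *Kat6a*-/-*Kat6b*+/+ embryos (0.92 ± 0.16, where 7.14% of all genes passed). It also rose vs. *Kat6a*+/+*Tg(Kat6b)* embryos (0.79 ± 0.16, where 3.41% passed), and passed in the interaction (1.25 ± 0.23, where 0.153% passed). Of the 12 embryo markers, *Pdgfra* (0.30 ± 0.05) and *Tbx5* (0.66 ± 0.16) rose and *Meox1* (-0.21 ± 0.04) fell with the transgene in *Kat6a*-/- embryos (7.14% of all genes passed). *Pdgfra* fell in *Kat6a*-/-*Kat6b*+/+ embryos vs. wild type (-0.24 ± 0.05, where 1.88% of all genes passed). *Meox1* was lower in *Kat6a*-/-*Tg(Kat6b)* embryos than in either *Kat6a*+/+ genotype (-0.19 ± 0.04 in each). Of all genes 0.670% passed vs. wild type and 3.41% vs. *Kat6a*+/+*Tg(Kat6b)* embryos. *Pax3* (-0.19 ± 0.04) and *Sox1* (-0.16 ± 0.03) fell over both *Kat6b* states (4.82% of all genes passed). The part of these tissues in the results on germline genes was not tested.

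The genes beside *Sycp1* and *Cyct* were read from GENCODE positions on GRCm39. Within 500 kb of *Cyct* 12 genes were tested and none passed in *Kat6a*-/- vs. *Kat6a*+/+ embryos over both *Kat6b* states (edgeR; 2 of 12 at an unadjusted p under 0.05, against 19.9% of all genes), with log2 fold changes from -0.37 to 0.43. *Rbm45*, whose start lies 3.90 kb from that of the longer annotated isoform of *Cyct*, changed by -0.03 ± 0.03. Within 500 kb of *Sycp1* 8 genes were tested and 1 passed, its nearest neighbour *Nr1h5*, a nuclear receptor gene that ends 3.38 kb upstream of *Sycp1* on the same strand (chr3:102846830-102871449). *Nr1h5* was higher in *Kat6a*-/- embryos by 2.78 ± 0.39 on the log2 scale (edgeR FDR = 0.00389), and in *Kat6a*-/-*Tg(Kat6b)* compared with *Kat6a*+/+*Tg(Kat6b)* embryos by 4.01 ± 0.65 (edgeR FDR = 0.0133). The log2 fold changes of the other 7 genes lay between -0.06 and 0.04.

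The level of *Nr1h5* went with litter, also among wild-type embryos. It was at 38.5 and 44.1 CPM in the 2 wild-type embryos of litters 801 and 803 and at 29.7 to 45.1 CPM in their *Kat6a*-/-*Kat6b*+/+ littermates. In litters 2597 and 2598 it was at 1.83 and 1.92 CPM in the 2 wild-type embryos and at 0.371 to 2.35 CPM in their *Kat6a*+/+*Tg(Kat6b)* littermates. The *Kat6a*-/-*Tg(Kat6b)* embryos of litters 483 and 498 were at 35.7 to 46.9 CPM. Among wild-type embryos *Sycp1* was at 4.14 and 5.53 CPM in the litters with high *Nr1h5* and at 3.75 and 4.12 CPM in those with low *Nr1h5*, and the part of this split in the values of *Sycp1* was not tested. The *Kat6a*+/+*Tg(Kat6b)* embryos all come from litters with low and the *Kat6a*-/-*Tg(Kat6b)* embryos all from litters with high *Nr1h5*, so in comparisons of these genotypes the litter split cannot be told apart from genotype. The comparison over both *Kat6b* states shares this limit in part. All its *Kat6a*-/- embryos come from litters with high *Nr1h5*, but of its *Kat6a*+/+ embryos only the 2 wild-type embryos of litters 801 and 803 do. The part of the split in the genes that passed there was not tested.

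**Figure D5:**
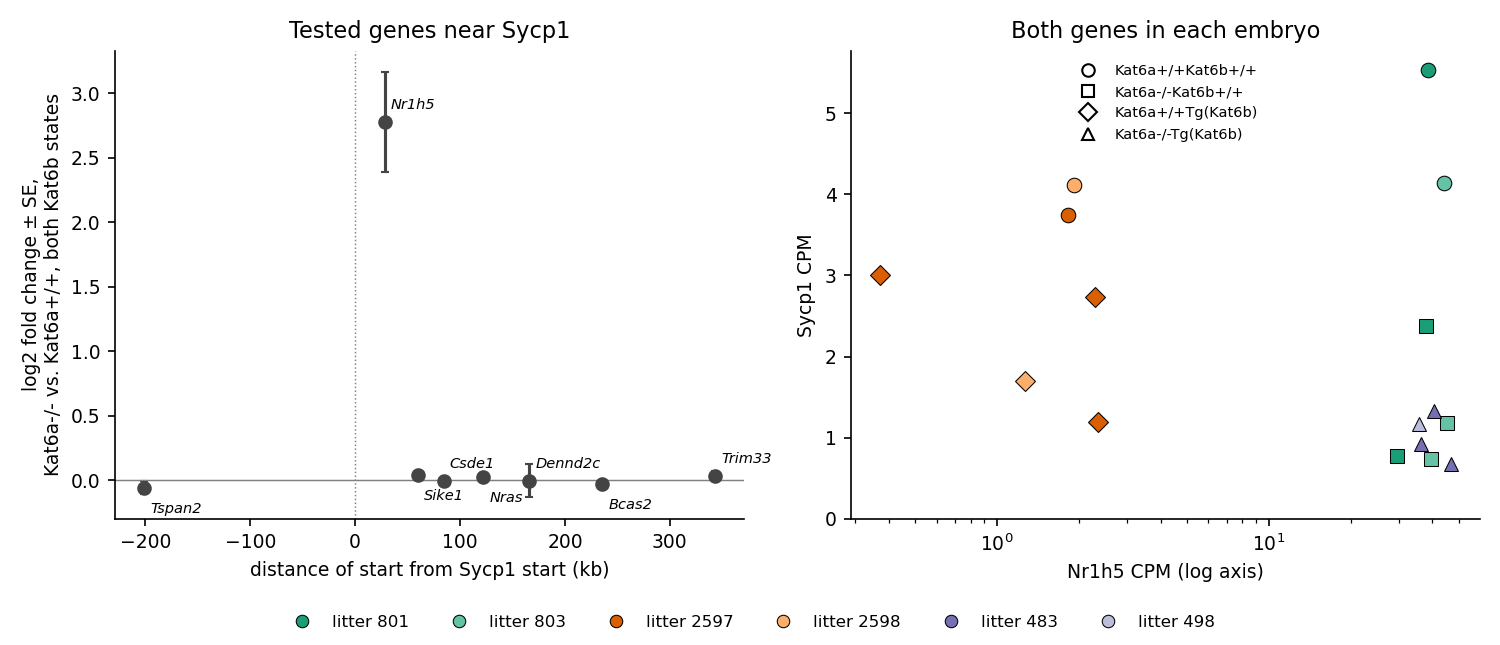
Left, log2 fold change ± SE of the 8 tested genes within 500 kb of *Sycp1*, in *Kat6a*-/- vs. *Kat6a*+/+ embryos over both *Kat6b* states, by distance of their starts from that of *Sycp1* in kb. Right, CPM of *Nr1h5* (log axis) and *Sycp1* in each of 16 embryos, coloured by litter with a symbol for genotype; *Nr1h5* splits the litters into a group at 0.371 to 2.35 CPM and one at 29.7 to 46.9 CPM, while *Sycp1* is highest in wild-type embryos of both.

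The genes whose levels over the 16 embryos were most like those of *Sycp1* (Pearson's r of log2 CPM) were *Nek3* (0.843), *Oc90* (0.776), *BC106179* (0.775), *Pde3b* (0.775) and *Smim19* (0.773). *Nek3* and *Smim19* lie 0.731 and 0.398 Mb from *Kat6a* on chromosome 8. For *Cyct* they were *Hoxa7* (0.872), *Adam9* (0.862), *Tubb4a* (0.856), *Slc43a3* (0.853) and *As3mt* (0.851), of which *Adam9* lies 2.09 Mb from *Kat6a*. None of these 10 genes is a member of the germline lists. The embryos share genotype and litter in blocks, so the values of r describe the pattern and test nothing.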

How the data were processed

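RNA was sequenced from 16 whole E9.5 mouse embryos. The authors deposited gene lengths and counts per embryo of 26411 genes, not normalized. The submitters' processing notes name bcl2fastq, featureCounts and mm39, and the paper names a TruSeq kit that does not mark strand and Rsubread. The annotation, the strand setting and the handling of shared reads are not given in the sources used here. Genotype and replicate come from the labels. The replicates are separate embryos with a litter and a sex in the labels, and littermates are not independent of each other. Tests of *Sycp1* and *Cyct* that had been planned for the transgene are not given, because all genotypes bear on the choice of these genes.

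Counts were tested with edgeR 4.0.16 (R 4.3.3): filterByExpr (minimum count 10, minimum total 15) kept 15679 genes, holding over 99.9% of counts (99.95% to 99.96%), TMM factors were 0.985 to 1.02, and a robust quasi-likelihood model was fitted over all 16 embryos with 2 surrogate variables (sva 3.50.0, 20 permutations, at most 4). P-values were adjusted over all tested genes by the Benjamini-Hochberg method, with a threshold of 0.05. The 4 members below the filter were compared by two-sided exact permutation tests of mean CPM over all 12870 splits of 8 against 8 embryos. These tests took no account of litter and treated littermates as independent. Intervals of *Cyct* ratios are exact Clopper-Pearson intervals, and a count of 0 allows up to 3 counts.

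The members and lists were chosen with earlier results of these data known. Named are the members, list genes past the threshold and the 2 highest of each list, the 5 genes most like *Sycp1* and *Cyct*, tested genes within 500 kb of them, and *Kat6a*, *Kat6b* and *Xist*. Genes named as being at 0, *Mga*, *Max*, *Pcgf6* and *Cycs* fall outside this rule and were picked with their values in view. Alternatives were other numbers of surrogate variables, sex as a covariate, DESeq2's size factors, DESeq2 1.42.0, limma-voom (limma 3.58.1), other filters, replicate or litter as a block, only the genotypes compared and each embryo left out. The scripts were tested on simulated data. Positions are from GENCODE on GRCm39.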

Additional observations from a re-analysis of the deposited data

Results flagged for a closer look

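In groups of 4 embryos, an embryo was marked where its gap to the nearest of the others took more of the range of the group than Dixon's 95% critical value. For normally distributed values chance does this in about 1 of 20 groups. Of 43 groups of a gene and genotype, 5 had such an embryo. This number cannot be set against 1 of 20, since near 0 a single count is enough to mark an embryo. The marks of *Cyct* and *Hormad1* are of this kind. *Cyct* was at 0.0446 CPM in wild-type replicate 3 (1 count, the others at 0) and at 0.0873 CPM in *Kat6a*+/+*Tg(Kat6b)* replicate 4 (2 counts, the others at 0.0412 to 0.0426). *Hormad1* was at 0.0412 CPM in *Kat6a*+/+*Tg(Kat6b)* replicate 3 (1 count, the others at 0). *Ddx4* was at 0.945 CPM in *Kat6a*-/-*Kat6b*+/+ replicate 3 (16 counts, the others at 0.387 to 0.479). *Dnd1* was at 2.15 CPM in *Kat6a*+/+*Tg(Kat6b)* replicate 1 (52 counts, the others at 1.53 to 1.62).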

How the results depend on the processing

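*Sycp3*, *Ddx4*, *Dnd1* and *Pou5f1* passed the threshold in none of the 7 comparisons under the 24 to 27 alternatives that included the gene. Of their 710 values under alternatives, 664 kept their direction and 46 changed sign, and the cause was not tested. Of the 351 values of *Sycp1* and *Cyct*, which are described without a test, 7 changed sign. In *Kat6a*-/-*Tg(Kat6b)* relative to *Kat6a*+/+*Tg(Kat6b)* embryos *Sycp3* turned to -0.0276 with no surrogate variables, -0.0269 with 1, -0.0296 with sex as the covariate and -0.0315 with only these genotypes in the fit, and to -0.15 where every embryo had to have 10 counts. *Pou5f1* turned there to 0.28 with no surrogate variables, 0.25 with 1, 0.24 with sex and 0.28 with only these genotypes. Over both *Kat6b* states *Pou5f1* turned to 0.0896, 0.0419 and 0.0486 with no surrogate variables, 1 and sex, and *Sycp3* to -0.0101 with 10 counts in every embryo. The interaction of *Sycp3* turned to 0.0302 with limma-voom. Without surrogate variables 1 gene of the piRNA list passed over both *Kat6b* states (0 with them) and 0 of the list of germ cell surroundings (2 with them).

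The labels give every genotype the replicate numbers 1 to 4. Some same-numbered embryos were littermates. Replicate 1 of wild-type and *Kat6a*-/-*Kat6b*+/+ embryos came from litter 801. Replicates 3 and 4 of wild-type and *Kat6a*+/+*Tg(Kat6b)* embryos came from litters 2597 and 2598. Deviations of same-numbered embryos correlated at -0.255 to 0.215, and 10 of 24 pairs exceeded 0.1, against 19 of 72 pairs with other numbers. With the replicate block *Cyct* changed by 0.0826 in *Kat6a*-/-*Tg(Kat6b)* relative to *Kat6a*-/-*Kat6b*+/+ embryos, *Pou5f1* by 0.11 relative to *Kat6a*+/+*Tg(Kat6b)*, and the interaction of *Sycp3* was 0.00754. *Sycp1* in *Kat6a*+/+*Tg(Kat6b)* relative to wild-type embryos was -1.13 with this block (-1.04 without it), and of all genes 12 passed there (22 without it) and 286 in the comparison of the genotypes with the transgene (535 without it). With litter as a block, which 12 embryos allow, *Ddx4* turned to -0.13 in *Kat6a*+/+*Tg(Kat6b)* relative to wild-type embryos, *Sycp1* was -0.90 there and -1.90 in *Kat6a*-/-*Kat6b*+/+ embryos (-1.04 and -1.76 without it), and 1 and 18 of all genes passed (22 and 295 without it).

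Leaving out each embryo in turn gave ranges with both signs for *Sycp3* (-0.0729 to 0.14 in *Kat6a*-/-*Kat6b*+/+ and -0.38 to 0.057 in *Kat6a*+/+*Tg(Kat6b)* relative to wild-type embryos, -0.33 to 0.16 between the genotypes with the transgene, -0.15 to 0.10 over both *Kat6b* states and -0.36 to 0.12 in the interaction) and *Ddx4* (-0.17 to 0.54 in *Kat6a*+/+*Tg(Kat6b)* relative to wild-type embryos). In *Kat6a*-/-*Tg(Kat6b)* relative to *Kat6a*-/-*Kat6b*+/+ embryos they were -0.60 to 0.27 for *Sycp1*, -0.71 to 0.17 for *Cyct* and -0.18 to 0.0432 for *Dnd1*. For *Pou5f1* they were -0.31 to 0.18 between the genotypes with the transgene, -0.25 to 0.054 over both *Kat6b* states and -0.12 to 0.42 in the interaction, and for *Dnd1* -0.00475 to 0.15 over both *Kat6b* states. The difference in mean CPM between *Kat6a*-/- and *Kat6a*+/+ embryos ranged from -0.0261 to 0.0222 for *Dazl*, from -0.145 to -0.0959 for *Dppa3* and from 0.0361 to 0.0679 for *Mael*, whose exact permutation p ranged from 0.0274 to 0.177. Genes passing over all genes ranged, over all alternatives, from 18 to 432 in *Kat6a*-/-*Kat6b*+/+, 39 to 241 in *Kat6a*-/-*Tg(Kat6b)* and 1 to 203 in *Kat6a*+/+*Tg(Kat6b)* relative to wild-type embryos, from 98 to 1671 for the transgene in *Kat6a*-/- embryos, from 165 to 880 between the genotypes with the transgene, from 398 to 1031 over both *Kat6b* states and from 16 to 133 in the interaction. For *Cyct* and the 4 genes below the filter, the few counts per embryo limit every comparison.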
